A study of Mus musculus with 4 samples.

Results

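Cathepsins, legumain and pepsinogen are proteases that work in acid compartments, and cystatin C is a secreted inhibitor of the cysteine proteases among them. The set described here holds 10 genes of the 24347 gene rows: cathepsin H (Ctsh), pepsinogen A5 (Pga5), cathepsins A, B, C, D, L and Z (Ctsa, Ctsb, Ctsc, Ctsd, Ctsl, Ctsz), legumain (Lgmn) and cystatin C (Cst3). Ctsh and Pga5 were chosen by their values, since they had among the largest increases in the promoter KO samples, and the other 8 genes were added as their family. The question was whether the rest of the family moved as these 2 genes did. All 10 genes passed the filter for testing, a level of 1 FPKM or more in 2 or more samples, which 11941 genes passed, and all 10 were above 1 FPKM in every sample. FPKM is the number of fragments scaled to transcript length and to the fragments mapped, so levels are compared between genes per length.

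The RNA came from day 3 embryoid bodies (EBs), the clusters that suspended mouse embryonic stem cells (mESCs) form as they begin to differentiate once the cytokine LIF is withdrawn, here in medium with 15% serum and with no other treatment. WT EBs (samples WT 1 and WT 2) were compared with EBs of the NEMEP promoter-KO genotype (samples promoter KO 1 and 2, or KO 1 and 2), in which the promoter of Gm11549, the gene of the micropeptide NEMEP, was deleted with Cas9 and a pair of guide RNAs. All 4 samples are of the 129/Ola strain, and the methods name E14Tg2a.IV among the mESC lines. The KO lines were grown from single sorted cells, and the labels do not say whether promoter KO 1 and 2 are separate clones or separate cultures of 1 clone, so p-values measure only the spread between these samples. An estimate from the FPKM steps of single-transcript genes, at an assumed fragment length of 200 bases, put the depth at 24700000 and 21900000 fragments for WT 1 and WT 2 and at 21500000 and 20100000 fragments for promoter KO 1 and promoter KO 2.

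The level of Gm11549 was 0.750 FPKM (WT 1) and 0.522 FPKM (WT 2) against 0 (promoter KO 1) and 0.0659 FPKM (promoter KO 2). The targeted transcript was thus lower in both samples labelled KO, although it stood under 1 FPKM everywhere and was not tested. The labels call the cells ES-derived mesendoderm. The 8 mesendoderm markers (T, Eomes, Mixl1, Gsc, Foxa2, Evx1, Mesp1 and Lhx1) summed to 777 and 1002 FPKM in WT samples 1 and 2, but to 148 and 314 FPKM in KO samples 1 and 2, with T the most abundant by its mean over the 4 samples. These markers were above 0 in all 4 samples, and 5 of the 8 (Mixl1, Gsc, Evx1, Mesp1 and Lhx1) fell in the KO, where limma called 1.89% of tested genes lower. The pluripotency factor Pou5f1 was also high throughout, with 1499 and 1188 FPKM in the WT samples against 1522 and 1545 FPKM in the KO samples, so mesendoderm is not the only state whose markers these EBs carry.

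Cathepsins are made as inactive proenzymes, are carried to lysosomes largely by the mannose 6-phosphate route, and are activated there by acid pH and by other proteases. Most are papain-like cysteine proteases, while cathepsin D and the pepsinogens are aspartic proteases and cathepsin A is a serine carboxypeptidase. In the early mouse embryo the visceral endoderm, the epithelium around the epiblast, takes up proteins by endocytosis and degrades them in lysosomes.

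The 10 genes are spread over 7 chromosomes, with Cst3, Ctsa and Ctsz on chromosome 2 and Ctsc and Ctsd on chromosome 7 but not next to each other. Ctsh (chr9:90054152-90076089, plus strand, GENCODE M21 on GRCm38) encodes a cysteine protease with aminopeptidase activity. Its level was 4.39 and 2.29 FPKM in WT samples 1 and 2 against 23.9 and 34.4 FPKM in KO samples 1 and 2, or about 154, 70.9, 727 and 980.5 fragments at the estimated depth. Neither KO sample overlapped with WT, with a mean of 29.1 ± 7.46 FPKM (SD, n = 2) against 3.34 ± 1.49 (SD, n = 2). Pga5 (chr19:10668956-10678071, minus strand) encodes the precursor of pepsin, a digestive aspartic protease best known from the stomach. Its level was 4.45 and 1.02 FPKM in WT samples 1 and 2 against 22.0 and 26.1 FPKM in KO samples 1 and 2, or about 134, 27.2, 575 and 639 fragments. The groups did not overlap, and the largest gap within a genotype was between the WT samples, at 4.36 times. The ratio of mean FPKM was 8.73 for Ctsh and 8.79 for Pga5. On the log2(FPKM + 1) scale, which understates differences of genes at low levels, the differences were 2.82 for Ctsh and 2.91 for Pga5. These increases are the values on which both genes were selected, so they are a description and were given no test. In the order of log2 differences over all tested genes Pga5 was number 4 and Ctsh number 5, just behind Glipr1 at 2.98, and the next genes were Aqp8 at 2.80 and Lama1 at 2.76. In bulk samples such as these, more cells of a type and more RNA per cell cannot be told apart, nor can fewer cells and less RNA per cell.

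**Figure D1:**
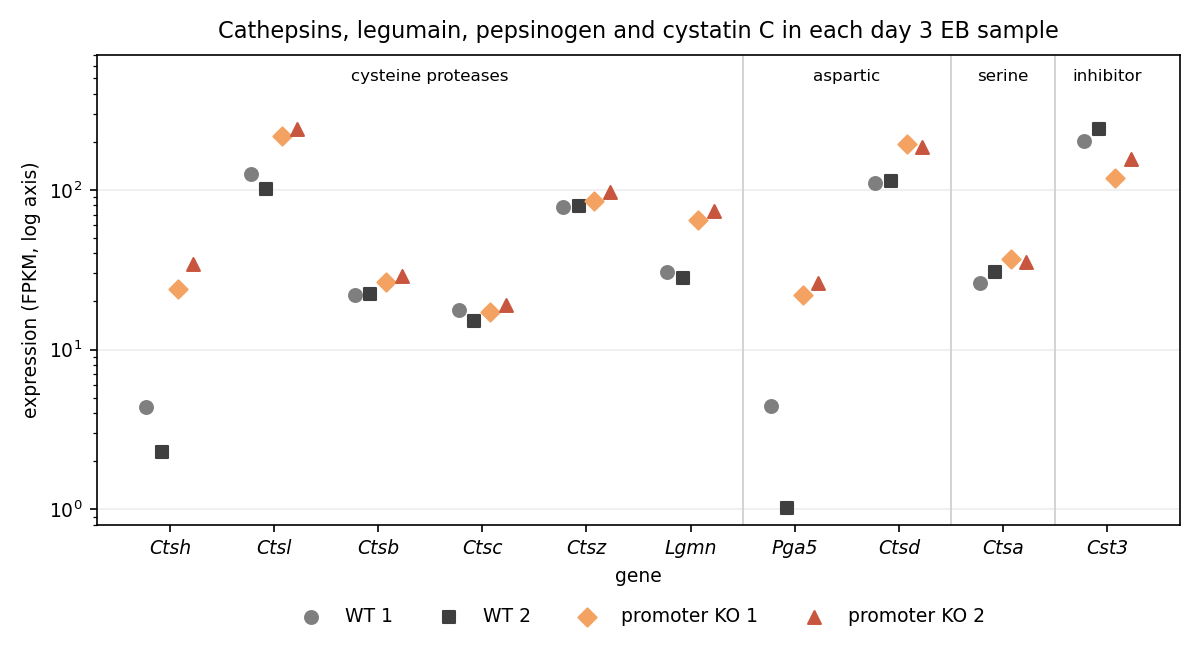
Expression (FPKM, log axis) of the 10 genes in each of the 4 samples, 1 point a sample, grouped by kind of protease. Ctsh and Pga5 lie under 5 FPKM in both WT samples and above 20 in both promoter KO samples, and Cst3 is the gene whose KO points are below its WT points.

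The rest of the family followed in part, and by smaller amounts. By limma with Benjamini-Hochberg adjustment over all 11941 tested genes, 3 of the 8 family members rose (Ctsd, Ctsl and Lgmn, adjusted p under 0.05), where 1.68% of tested genes were called higher. None of the 8 was called lower, where 1.89% of tested genes were, and 6 of the 8 had an unadjusted p under 0.05 (1 of them, Cst3, on the lower side), where 30.6% of tested genes did. Both KO samples were above both WT samples for 6 of the 8 (Ctsa, Ctsb, Ctsd, Ctsl, Ctsz and Lgmn), against 32.9% of tested genes. Both were below for 1 (Cst3), against 32.4% of tested genes, and the genotypes overlapped for Ctsc. The median log2 difference of the 8 was 0.32, and that of all tested genes was 0.00. The family was listed with earlier results of these samples known, so these counts describe the set. No family member came near the size seen for Ctsh and Pga5: Lgmn was number 103 in the order of log2 differences, Ctsl number 167 and Ctsd number 343. Since Ctsh and Pga5 were chosen for large increases in these same samples, smaller differences in their relatives follow in part from that choice.

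**Figure D2:**
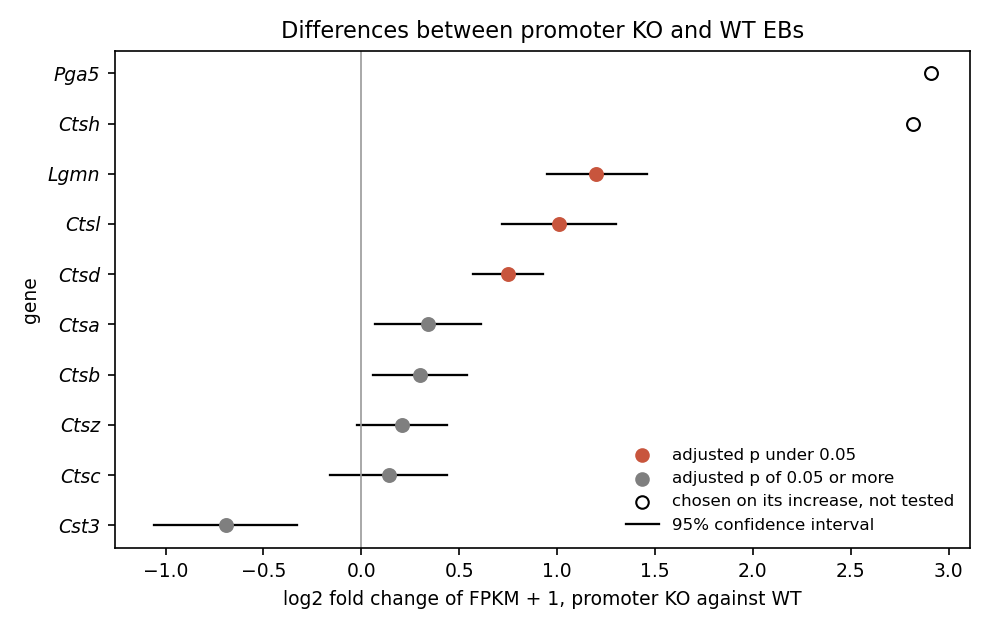
Log2 differences of FPKM + 1 between promoter KO and WT (n = 2 samples per genotype), with 95% confidence intervals from limma for the 8 family members, and open circles for Ctsh and Pga5, which were chosen by their increase and were not tested. Lgmn, Ctsl and Ctsd are past the threshold, and the intervals of Ctsz and Ctsc include 0.

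The sequence before the gene start was searched in every member with a promoter window, whether or not its level moved. RefSeq promoter windows (GRCm38.p6, 250 bases before to 50 after each start) were given for 7 of the 10 genes, in 9 windows, because Ctsa and Lgmn have 2 each. The names without a window were Ctsh, Pga5 and Ctsb. The motifs, searched on both strands, were the E-box CACGTG, its longer forms TCACGTG and TCACGTGA (the core of the CLEAR element of lysosomal genes), and the GATA motif AGATAA. Each longer form contains the shorter ones, so a single position can count for 3 motifs. CACGTG was in a window of Ctsa, Ctsd, Ctsl and Lgmn, 4 of the 7 genes, and in 8.09% of the 27025 genes with a window. TCACGTG was in Ctsa, Ctsd and Lgmn (4.29% of all genes), and TCACGTGA in Ctsa and Ctsd (1.12% of all genes). AGATAA was in Ctsz alone among the 7 (12.7% of all genes). The stretches below run 5′ to 3′ on the strand of the gene, and capitals mark the longest E-box form at that place. A single stretch is shown per gene, although Ctsa and Ctsd each hold a further E-box, described after the stretches.
Lgmn: gaatgtctgTCACGTGgtccatttt
Ctsl: gttagaagcCACGTGctgatctaa
Ctsd: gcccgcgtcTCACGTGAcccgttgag
Ctsa: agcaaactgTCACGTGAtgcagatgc
The Lgmn stretch is at chr12:102439127-102439151 on the minus strand, with the motif starting 50 bases before the start of its second window, inside an intron of GENCODE M21. The Ctsl stretch is at chr13:64370742-64370765 on the minus strand, 236 bases before the start, in a UTR of a longer annotated transcript. The Ctsd stretch is at chr7:142387910-142387935 on the minus strand, 99 bases before the start, also in an annotated UTR. The Ctsa stretch is at chr2:164833751-164833776 on the plus strand, 13 bases before the start of its second window, in a UTR of transcripts that begin further upstream. Ctsa has another TCACGTGA in the stretch chr2:164833768-164833793, 5 bases after that start and also in a UTR. Ctsd has another TCACGTG, read on the opposite strand, in the stretch chr7:142388057-142388077. That site is 245 bases before the start, outside any annotated gene. A match describes these letters and does not show that a factor was bound, and Ctsa carries the longest form without being among the genes called.

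Among the cysteine proteases, Ctsl and Lgmn rose. Ctsl (chr13:64359337-64370890, minus strand), a broad endoprotease, was at 125 and 101 FPKM in WT samples 1 and 2 against 217 and 239.7 FPKM in KO samples 1 and 2. The KO level was about 2 times that of WT, with no overlap (log2 difference 1.01, SE 0.12, 95% CI 0.72 to 1.30, limma adjusted p = 0.0305). Lgmn (chr12:102394084-102439813, minus strand), the asparaginyl endopeptidase that also processes other cathepsins, was at 30.7 and 28.2 FPKM in WT samples 1 and 2 against 64.8 and 73.6 FPKM in KO samples 1 and 2. It had the largest log2 difference of the 8, again with no overlap (1.20, SE 0.10, 95% CI 0.95 to 1.46, limma adjusted p = 0.0208). Both carry CACGTG in the stretches printed above. Lgmn has no near-identical copy and no overlapping gene in the annotation, while Ctsl shares sequence with the annotated genes Gm49230 and Gm47123 at its own locus. Both calls depended on single samples: the adjusted p was 0.135 for Ctsl and 0.110 for Lgmn with WT 2 left out, and 0.117 and 0.0632 with promoter KO 1 left out. In those fits the lone sample is assumed to vary like the others, and limma called 0 genes of any kind, with 1821 and 1942 genes at an unadjusted p under 0.05. The direction was the same with any of the 4 samples left out, with log2 differences from 0.86 to 1.16 for Ctsl and from 1.11 to 1.29 for Lgmn.

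The remaining cysteine cathepsins did not pass the threshold, which does not show that their levels were equal. Ctsb, an endoprotease that also trims the carboxyl end of peptides, was at 22.1 and 22.2 FPKM in WT samples 1 and 2 against 26.4 and 28.8 FPKM in KO samples 1 and 2. The KO samples were both higher, by little (log2 difference 0.30, 95% CI 0.06 to 0.54, limma adjusted p = 0.109). Ctsz, a carboxypeptidase, was at 78.4 and 79.1 FPKM in WT samples 1 and 2 against 84.8 and 97.4 FPKM in KO samples 1 and 2. The KO samples were again above the WT samples, but the gap between KO samples exceeded that between promoter KO 1 and WT (log2 difference 0.21, 95% CI -0.02 to 0.44, limma adjusted p = 0.199). Ctsc, a dipeptidyl peptidase that activates serine proteases of immune cell granules, was at 17.7 and 15.1 FPKM in WT samples 1 and 2 against 17.2 and 18.9 FPKM in KO samples 1 and 2. WT 1 lay between the KO samples, so the genotypes overlapped (log2 difference 0.14, 95% CI -0.16 to 0.44, limma adjusted p = 0.478). The upper limits of these intervals, 0.54 for Ctsb and 0.44 for Ctsz and Ctsc, lie below the estimates of Ctsl and Lgmn, although differences between the genes were not tested. On the opposite strand Ctsb overlaps Fdft1, Ctsz overlaps Nelfcd and Ctsc overlaps Gm26522. Whether counting used strand is not given in the sources used here, so fragments of such pairs may be shared. Fdft1 was at 29.2, 31.6, 33.9 and 35.0 FPKM and Nelfcd at 53.7, 55.6, 51.0 and 51.9 FPKM in WT 1, WT 2, KO 1 and KO 2.

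The aspartic protease of the family, Ctsd (chr7:142375911-142388038, minus strand), is a main endoprotease of lysosomes. It was at 111 and 113 FPKM in WT samples 1 and 2 against 193 and 186 FPKM in KO samples 1 and 2. The samples of each genotype lay close together and the genotypes far apart (log2 difference 0.75, SE 0.07, 95% CI 0.57 to 0.93, limma adjusted p = 0.0233). The difference stayed between 0.73 and 0.78 with any sample left out, but the adjusted p was then 0.0586 without WT 1, 0.136 without WT 2 and 0.0931 without promoter KO 1. Without the intensity trend in limma the adjusted p was 0.0562 for Ctsd and 0.0605 for Ctsl. Ctsd overlaps the annotated gene Gm49369 on its own strand, for which no value was used here. Pga5, the other aspartic protease of the set, had a log2 difference nearly 4 times as large but a level of 22.0 to 26.1 FPKM in the KO samples, far below Ctsd.

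Ctsa, the serine carboxypeptidase that protects beta-galactosidase and neuraminidase in lysosomes, was at 26.1 and 30.8 FPKM in WT samples 1 and 2 against 37.1 and 35.3 FPKM in KO samples 1 and 2. Both KO samples were above both WT samples, and the difference did not pass the adjusted threshold (log2 difference 0.34, 95% CI 0.07 to 0.61, limma adjusted p = 0.110). Ctsa overlaps Pltp and Neurl2 on the opposite strand. Pltp was at 28.4, 31.8, 40.0 and 35.8 FPKM in WT 1, WT 2, KO 1 and KO 2, close to Ctsa in each sample, so the value of Ctsa is uncertain to that extent.

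The inhibitor went the other way. Cst3, which blocks papain-like cathepsins and legumain outside cells, was at 202 and 241 FPKM in WT samples 1 and 2 against 119 and 155 FPKM in KO samples 1 and 2. Both KO samples were below both WT samples (log2 difference -0.69, SE 0.15, 95% CI -1.06 to -0.33), just short of the threshold (limma adjusted p = 0.0583). The adjusted p was 0.0383 with promoter KO 2 left out, at a log2 difference of -0.88, and between 0.103 and 0.270 with any other sample left out. The 9 protease genes together summed to 420.2 and 393 FPKM in WT samples 1 and 2 against 685 and 740.4 FPKM in KO samples 1 and 2. Cst3 FPKM per Ctsl FPKM was 1.61 and 2.37 in WT samples 1 and 2 but 0.550 and 0.646 in KO samples 1 and 2. Per FPKM of the 6 cysteine proteases together it was under 1 in every sample, at 0.725 and 0.970 in WT samples 1 and 2 and at 0.275 and 0.314 in KO samples 1 and 2. Cst3 was thus the most abundant of the 10 transcripts per length in both WT samples, whereas Ctsl was in both KO samples, followed by Ctsd and then Cst3.

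**Figure D3:**
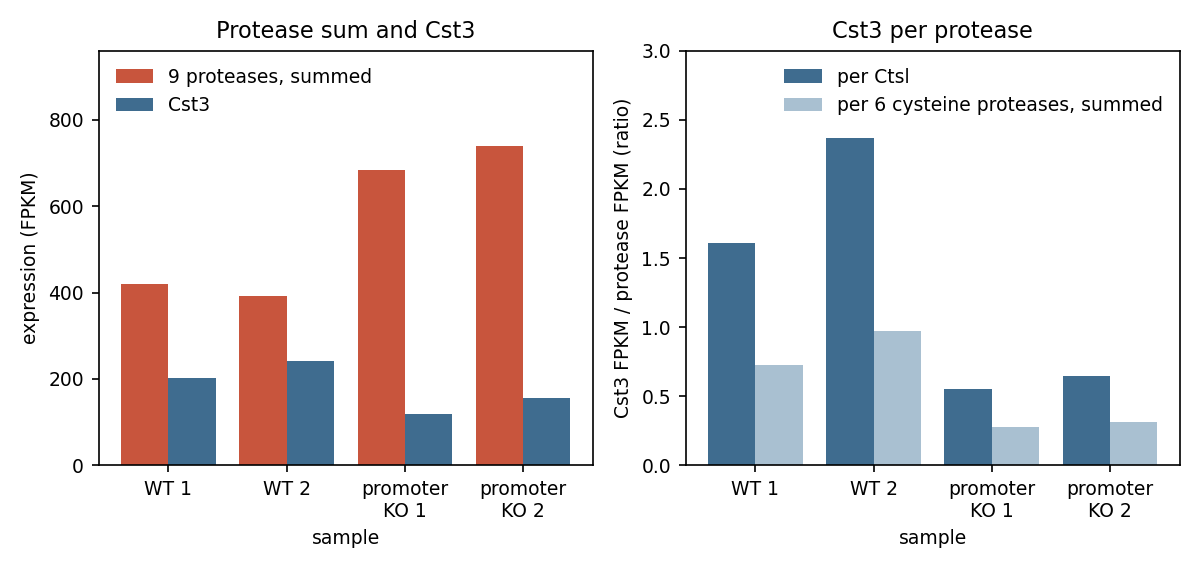
Left, summed expression (FPKM) of the 9 protease genes and that of Cst3 in each sample; right, the ratio of Cst3 FPKM to that of Ctsl and to the sum of the 6 cysteine proteases. Both ratios are lower in the promoter KO samples than in the WT samples, and only the ratio to Ctsl is above 1 in WT.

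The order of levels within a genotype was otherwise much alike. In WT, Ctsl and Ctsd followed Cst3 with overlapping values, then came Ctsz, then Lgmn and Ctsa with overlapping values, then Ctsb and Ctsc, and last Ctsh and Pga5, whose values also overlapped. In promoter KO, Ctsl, Ctsd, Cst3, Ctsz, Lgmn and Ctsa followed each other without overlap. Below them Ctsh overlapped with both Ctsb and Pga5, so these neighbours did not differ beyond their spread, and Ctsc was lowest. Ctsh and Pga5, in that order, made up 1.04% and 1.06% of the protease sum in WT 1, 0.582% and 0.260% in WT 2, 3.48% and 3.20% in KO sample 1, and 4.65% and 3.53% in KO sample 2. Even where they were highest, these genes were a small share of the protease transcripts, and Ctsl and Ctsd were the largest shares in every sample.

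Related proteases outside the set were counted in the same way. Of 27 other papain-like, aspartic, serine and legumain-like proteases, 9 were tested. Limma called 2 of them higher, where it called 1.68% of tested genes higher, and none lower, where it called 1.89%. At an unadjusted p under 0.05, 3 were on the higher and 1 on the lower side, beside 30.6% of tested genes in either direction. The median log2 difference of the 9 was 0.11. Dpp7, a lysosomal dipeptidyl peptidase, was at 8.10 and 7.18 FPKM in WT samples 1 and 2 and at 15.6 FPKM in each KO sample. The genotypes did not overlap (log2 difference 0.94, SE 0.12, limma adjusted p = 0.0326). Tpp1, a lysosomal tripeptidyl peptidase, was at 17.3 and 16.8 FPKM in WT samples 1 and 2 against 24.4 and 25.8 FPKM in KO samples 1 and 2. It was higher in both KO samples and only just past the threshold (log2 difference 0.53, SE 0.10, limma adjusted p = 0.0488). The call of Tpp1 was lost with a pseudocount of 0.1, with a mean of at least 5 FPKM, without the trend, after quantile normalization and with any sample left out (adjusted p from 0.0777 to 0.239 in the latter). The adjusted p of Dpp7 was 0.0585 without WT 1, 0.165 without WT 2 and 0.131 without promoter KO 1. The most abundant of these proteases besides Tpp1 were Blmh, at 78.2, 78.1, 77.8 and 78.2 FPKM in WT 1, WT 2, KO 1 and KO 2, and Scpep1, at 57.6, 56.6, 60.9 and 62.4 FPKM. Blmh was nearly level over the 4 samples (log2 difference 95% CI -0.19 to 0.18), and Scpep1 did not pass the threshold (0.11, limma adjusted p = 0.382). Ctsf and Pgc are named after their values were seen, as the other 2 genes at an unadjusted p under 0.05. Ctsf, the only further cathepsin tested, was at 10.5, 11.3, 7.83 and 8.90 FPKM in WT 1, WT 2, KO 1 and KO 2, lower in both KO samples and short of the threshold (log2 difference -0.34, 95% CI -0.65 to -0.04, limma adjusted p = 0.136). Pgc, the other pepsinogen tested, was at 1.46 and 1.44 FPKM in WT samples 1 and 2 against 3.68 and 2.36 FPKM in KO samples 1 and 2. It lay on the same side as Pga5 but at far lower levels (log2 difference 0.70, limma adjusted p = 0.0869). Listed at 0 in all 4 samples were Ctsg and 7 placental cathepsins (Cts3, Cts7, Cts8, Ctsj, Ctsm, Ctsq and Ctsr).

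Of 19 cystatins and other inhibitors besides Cst3, 4 were tested (Cstb, Serpinb6a, Fetub and Ahsg). Limma called 0 of them, where it called 1.68% of tested genes higher and 1.89% lower. An unadjusted p under 0.05 was found for 1 of the 4, beside 30.6% of tested genes. The median log2 difference of the 4 was 0.11. Cstb, the cytosolic inhibitor of cathepsins, was at 243 and 189 FPKM in WT samples 1 and 2 against 228 and 234 FPKM in KO samples 1 and 2. The KO samples lay between the WT samples, unlike those of Cst3 (log2 difference 0.10, limma adjusted p = 0.600). Serpinb6a was at 32.5, 36.4, 35.2 and 34.9 FPKM in WT 1, WT 2, KO 1 and KO 2, also overlapping (0.03, adjusted p = 0.881). Fetub and Ahsg are named after their values were seen. Fetub was at 1.25, 0.701, 2.82 and 2.04 FPKM in the same order (log2 difference 0.80, limma adjusted p = 0.0756). It was the only 1 of the 4 with both KO samples above both WT samples, against 32.9% of tested genes. With WT 2 under 1 FPKM, Fetub needed its KO values to pass the filter. Neither that order nor its unadjusted p under 0.05 is counted as an increase here. Ahsg was at 0.0455, 1.71, 0.526 and 1.15 FPKM, with overlap. The 9 inhibitors listed at 0 in all samples were Cst7, Cst8, Cst9, Cst10, Cst11, Cst12, Stfa1, Stfa2 and Stfa3.

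Of 20 genes for delivery to lysosomes and activation there, 19 were tested. Limma called 1 of them higher, where it called 1.68% of tested genes higher, and none lower, where it called 1.89%. At an unadjusted p under 0.05, 7 were on the higher and 1 on the lower side, again beside 30.6% of tested genes in either direction. The median log2 difference of the 19 was 0.11. The gene that rose was Tfeb, a transcription factor that activates lysosomal genes through the CLEAR element. It was at 4.26 and 5.44 FPKM in WT samples 1 and 2 against 22.6 and 17.6 FPKM in KO samples 1 and 2. Both KO samples were at least 3 times either WT sample (log2 difference 1.85, SE 0.17, limma adjusted p = 0.0217). The adjusted p was 0.101 without WT 2 and 0.0931 without promoter KO 1. The most abundant genes of the list were Rab7, a GTPase of late endosomes, at 171, 151, 208 and 189.8 FPKM in WT 1, WT 2, KO 1 and KO 2, Psap, at 133, 139.8, 143 and 141 FPKM, and the mannose 6-phosphate receptor M6pr, at 71.1, 79.1, 105 and 85.3 FPKM. All 3 were above WT in both KO samples, as were 32.9% of tested genes. None of the 3 passed the threshold (limma adjusted p = 0.104 for Rab7, 0.623 for Psap and 0.136 for M6pr). Gga1, named after its values were seen, was the 1 on the lower side, at 29.0, 34.2, 23.0 and 22.8 FPKM (log2 difference -0.44, limma adjusted p = 0.0724).

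**Figure D4:**
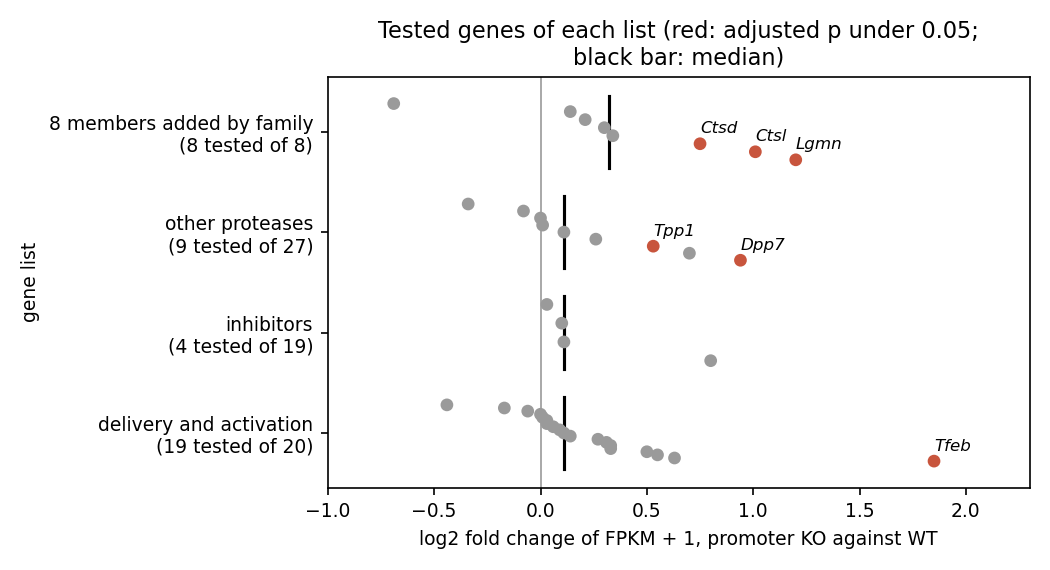
Log2 differences of FPKM + 1 between promoter KO and WT for the tested genes of the family and of 3 related lists, 1 point a gene, with red for an adjusted p under 0.05 and a black bar at each list's median. The medians are 0.32 for the 8 family members and 0.11 for each of the other lists, and Tfeb has the largest difference.

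The profile of Ctsh over the 4 samples was nearest to those of Aqp8, Glipr1, Amn, Pga5 and Lama1. The Euclidean distances of centred log2(FPKM + 1) values were 0.14, 0.25, 0.41, 0.55 and 0.75 in that order. The profile of Pga5 was nearest to those of Ctsh (0.55), Srgn (0.63), Amn (0.67), Aqp8 (0.69) and Glipr1 (0.73). Both were selected on large increases over the same 4 samples, so their nearness follows in part from that choice and shows nothing further. Aqp8 and Glipr1 were under 1 FPKM in both WT samples and were among the tested genes only through their KO values. Amn encodes the partner of the endocytic receptor cubilin, and Lama1 a laminin chain of basement membranes.

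Markers of other cell types were read beside the proteases, and they did not all move one way. Of 15 visceral endoderm markers, 13 were tested, and 3 of these (Apob, Cubn and Ihh) passed the filter only through the KO samples, so the limma calls of Cubn and Ihh are not counted as increases here. Of the other 10, Amn, Lrp2 and Dab2 rose, where 1.68% of tested genes were called higher, and limma called 0 lower (1, Rbp4, at an unadjusted p under 0.05 on that side). Ttr was also called higher, at 2.18, 0.996, 8.14 and 6.32 FPKM in WT 1, WT 2, KO 1 and KO 2. With WT 2 under 1 FPKM, Ttr needed its KO values to pass the filter, so its call is likewise not counted. Cubn was at 0.362, 0.0686, 3.09 and 4.29 FPKM and Ihh at 0.216, 0.202, 1.44 and 1.75 FPKM in WT 1, WT 2, KO 1 and KO 2. The 15 summed to 659 and 641 FPKM in WT samples 1 and 2 against 879 and 1010.0 FPKM in KO samples 1 and 2. Most of this was Apoe, which is not restricted to that tissue, at 635, 617, 808 and 924 FPKM, and without Apoe the sums were 24.5, 24.4, 71.4 and 85.6 FPKM. None of the 15 was at 0 in all samples, although Afp was at 1.25, 0.0242, 2.18 and 3.97 FPKM. Within WT, Ctsh was 1.92 times and Pga5 4.36 times as high in WT 1 as in WT 2. Of the 15 markers, 10 were higher in WT 1 and 5 were lower. The share of all genes that were higher in WT 1 was not counted. Afp and Cubn, both among the 10, were near 0 in WT 2, at 0.0242 and 0.0686 FPKM. The ratio of WT 1 to WT 2 was 2.05 for Amn, 2.00 for Dab2, 2.19 for Ttr and 1.15 for Lrp2, whereas Cited1 was at 3.40 and 8.35 FPKM and Rbp4 at 3.66 and 4.44 FPKM. Ctsl (1.23), Lgmn (1.09) and Ctsd (0.988) differed less between the WT samples than Ctsh and Pga5.

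Of 10 parietal endoderm markers, 9 were tested and 5 rose (Sparc, Lama1, Lamc1, Col4a1 and Col4a2), again beside 1.68% of tested genes. Snai1 of that list lay on the other side, at 36.7, 78.1, 13.0 and 18.5 FPKM in WT 1, WT 2, KO 1 and KO 2 (log2 difference -1.73, limma adjusted p = 0.0546). The 10 summed to 167 and 236 FPKM in WT samples 1 and 2 against 295 and 369 FPKM in KO samples 1 and 2, with Sparc the most abundant by its mean. Of 7 regulators of extraembryonic endoderm, 4 were lower in both KO samples than in both WT samples, with a median log2 difference of -0.56 over the 7. Gata6 fell, while Sox17 (log2 difference -0.79, adjusted p = 0.0779), Pdgfra (-1.04, 0.159) and Foxa1 (-0.56, 0.132) did not pass the threshold. Sox7 was at 0.289, 0.221, 1.87 and 1.66 FPKM and was called higher (adjusted p = 0.0371), but it passed the filter only through the KO samples, so that call is not counted either. Sox17, Pdgfra, Foxa1 and Snai1, as well as Apob, Cited1 and Rbp4 above, are named after their values were seen. The 7 summed to 36.8, 68.2, 26.3 and 36.3 FPKM, with Gata4 the most abundant by its mean but not in either WT sample. The summed visceral and parietal markers were thus higher in the KO samples, as were Ctsh, Pga5, Ctsl, Lgmn and Ctsd, and the summed regulators were not. The part of these markers in the protease differences was not tested.

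**Figure D5:**
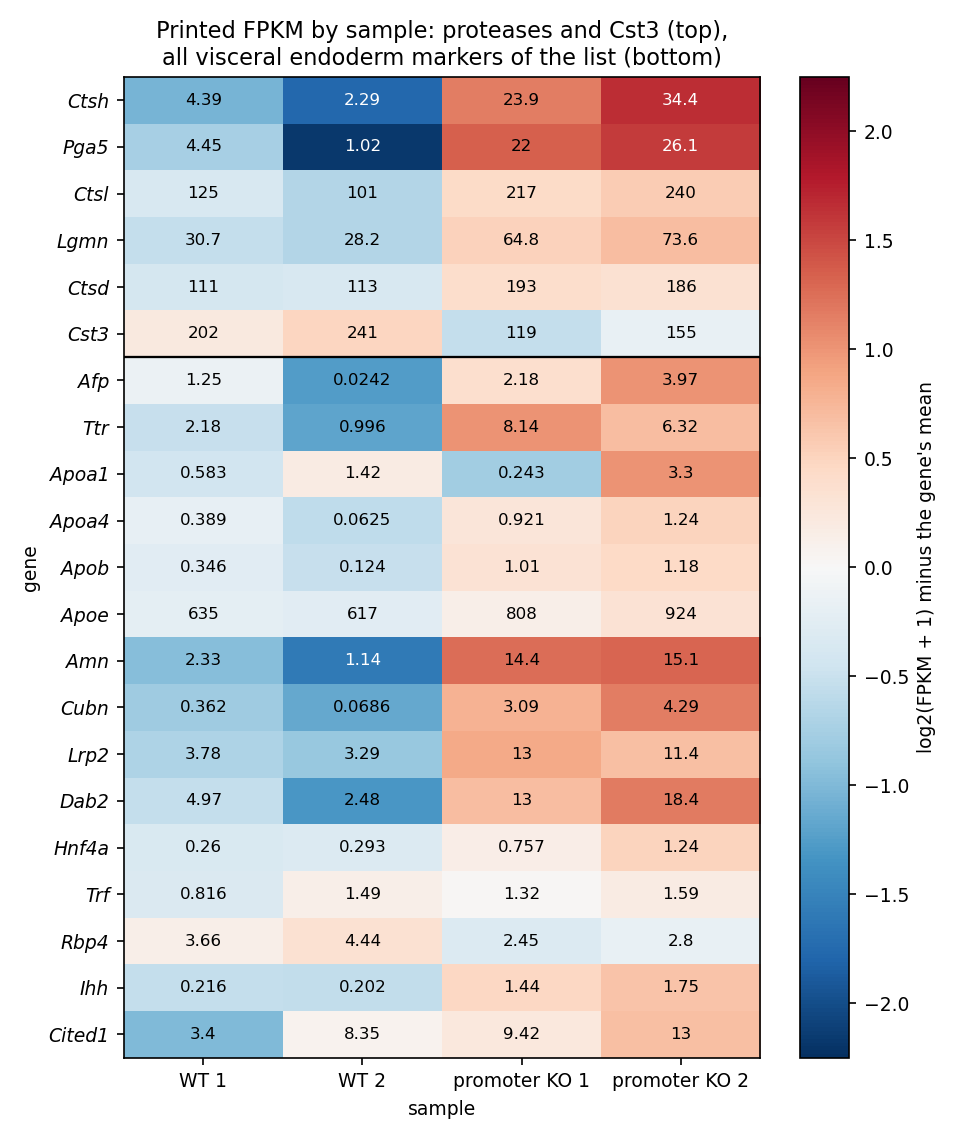
FPKM of 6 genes of the set and of all 15 visceral endoderm markers in the 4 samples, with colour for log2(FPKM + 1) minus the gene's mean. Ctsh and Pga5, which were chosen by their increase, are lowest in WT 2 and highest in promoter KO 2, whereas Cst3 is highest in WT 2. Some markers have the same order as Ctsh and Pga5 and others do not, and how many of all genes have it was not counted.

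Macrophages are rich in cathepsins, so their markers were read as well. Adgre1, Tyrobp and Fcer1g were at 0 in all 4 samples, and the 9 macrophage and blood markers summed to 7.36, 9.08, 8.42 and 11.6 FPKM in WT 1, WT 2, KO 1 and KO 2. Most of that sum was Cd68, itself a lysosomal protein. Of the 7 trophoblast markers Prl3d1 and Tpbpa were at 0, Cdx2 was the most abundant, and the sums were 10.9, 41.3, 6.01 and 8.93 FPKM. Of the 7 fibroblast markers Lum and Postn were at 0, Thy1 was the most abundant, and the sums were 12.8, 12.3, 17.3 and 10.9 FPKM. Limma called 0 of the 7 tested genes of these 3 lists, beside 1.68% of tested genes called up and 1.89% called down. Krt7 and Col1a1, 2 of the 7, had an unadjusted p below 0.05, which 30.6% of tested genes had. Both lay on the lower side, and Col1a1 had passed the filter only through the WT samples. Of 9 markers of pluripotent cells, all tested, Utf1 rose and Tdgf1 fell, where limma called 1.68% of tested genes up and 1.89% down. Both KO samples were above both WT samples for 6 of the 9 (32.9% of tested genes) and below for 2 (32.4%). Before adjustment, p was below 0.05 for 5 that increased and 2 that decreased, beside 30.6% of tested genes in either direction. The 9 summed to 3169, 2971, 4845 and 3894 FPKM, with Pou5f1 the most abundant by its mean. The part of these other lists in the differences of the proteases was not tested either.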

How the data were processed

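RNA-seq of 2 WT and 2 promoter KO day 3 EB samples was used, grouped by the labels. The authors deposited 1 table of expression values per sample. The submitters' processing notes name HISAT2 2.1.0, Cufflinks, Cuffnorm and mm10, while the methods of the study name TopHat, Cufflinks with a GENCODE annotation, and RPKM. The deposited values were taken as FPKM, the unit Cufflinks and Cuffnorm give, so length and library size had been normalized. From these, log2(FPKM + 1) was computed, and the 11941 genes that reached 1 FPKM in 2 or more samples entered limma 3.58.1 under R 4.3.3 (lmFit, then eBayes with trend, two-sided, Benjamini-Hochberg adjustment, called at an adjusted p under 0.05). The procedure was tested on simulated data, where it missed most of the smaller changes put in, so a gene that was not called may still differ. An exact permutation of 2 against 2 samples cannot give a p under 0.333 and was not used. Python 3.11.15, numpy 2.4.6, pandas 2.3.3 and matplotlib 3.10.9 handled tables and figures. Positions are from GENCODE M21 (GRCm38), and overlapping or near-identical genes (95% identity over 200 bases) were found with BLAST 2.17.0.

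The members and lists were chosen with earlier results of these data known. Named were all 10 members, Gm11549, from each related list the genes called and the 3 most abundant, the 5 profiles nearest to Ctsh and to Pga5, and from each marker list the most abundant gene and the defining markers at 0. Alternatives were another pseudocount, other filters, limma without the trend, median centring, quantile normalization, a replicate block and each sample left out in turn.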

Additional observations from a re-analysis of the deposited data

How the results depend on the processing

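Of 153 alternative values of the 10 genes and of Dpp7, Tpp1 and Tfeb, 0 reversed direction, 123 kept their side of the threshold (or, for Ctsh, Pga5 and ratios without a pseudocount, lay within the replicate spread), 28 lost it and 2 passed it (both Cst3). Ctsh ranged from 2.46 to 3.18 and Pga5 from 2.19 to 3.63 on the log2 scale. Over all tested genes, where 427 were called, limma called 203 with a mean of at least 5 FPKM, 82 without the trend, 283 after centring on sample medians and 0 (4059 at an unadjusted p under 0.05) with no filter beyond a value above 0, a setting that tests 18215 genes. With no such filter 0 of the 8 family members, 0 of the other proteases and 0 of the delivery genes were called (6, 6 and 7 at an unadjusted p under 0.05). Without the trend 1 of the 8 (Lgmn) was called. Of the other proteases 1 was called with a pseudocount of 0.1, with a mean of at least 5 FPKM, without the trend or after quantile normalization. Leaving out a sample gave 0 to 638 calls over all genes, 0 to 4 of the 8, 0 to 1 of the other proteases and 0 to 3 of the delivery genes. The 0 came with 1821 genes at an unadjusted p under 0.05 without WT 2 and 1942 without promoter KO 1. Fewer samples enter these fits, and the cause of the other changes was not tested. With a replicate block limma called 1202 genes, 4 of the 8 (Cst3 added, adjusted p = 0.0120), 1 inhibitor and 3 delivery genes. The labels do not say whether same-numbered samples were prepared together. Deviations of same-numbered samples correlated at r = 0.0348 across genes, but with 2 pairs this cannot show whether they were. The median log2 difference of all tested genes was between -0.01 and 0.04 in every setting. Depth limits the lowest values, such as Pga5 in WT 2, at about 27.2 fragments.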
